A study of Caenorhabditis elegans with 2 samples.

Results

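The Hedgehog-related and patched-related genes of Caenorhabditis elegans were taken as the nuclear protein-coding genes of the Ensembl annotation of assembly WBcel235 whose symbols belong to the warthog (wrt), groundhog (grd), ground-like (grl), hog-1, qua-1, patched-related (ptr), patched (ptc, ptd), che-14 or daf-6 names. The rule found 88 genes among 19973, of which 59 were Hedgehog-related and 29 patched-related. The Hedgehog-related genes comprised 10 wrt, 16 grd and 31 grl genes with hog-1 and qua-1, and the patched-related genes comprised 24 ptr genes, ptc-1, ptc-3, ptd-2, che-14 and daf-6. AMA-1, the largest subunit of the polymerase that makes messenger RNA, had been immunoprecipitated from whole wild-type animals of strain N2 at the first larval stage (L1), and the co-purified DNA had been sequenced. The labels describe 2 biological replicates of mixed males and females, with no treatment, mutation or other condition and with the age within the stage given as unknown, so the series holds a single group. With no second group there was no comparison of conditions to test, and every difference between the replicates is a description of these 2 samples. Because whole animals were used, polymerase signal from fewer cells of a type and less signal per cell cannot be told apart.

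Hedgehog-related proteins of nematodes are secreted proteins, some of which share the self-cleaving carboxy-terminal domain of Hedgehog, whereas the animal has no clear orthologue of Hedgehog itself or of its signal transducer Smoothened. Patched-related proteins are membrane proteins with a sterol-sensing domain, and the nematode family is much enlarged relative to that of flies or vertebrates. Many members of both families act in epidermis, glia or other epithelia, in the cuticle and its precursor matrix, and many are transcribed in cycles that follow the moults.

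Sequences are shown for the 6 members of highest pooled signal whose summit lay upstream of the annotated 5' end and outside the exons of any gene. Each has up to 60 bases to each side of the summit, cut where an exon began. Whether these stretches act as promoters of the members was not tested. grl-21, whose pooled signal was above those of grl-1, grd-5 and grd-4, was left out because its upstream summit lay in an exon of the neighbouring gene cyb-1. The sequences are from the RefSeq genome of assembly WBcel235 (ce11), written 5' to 3' on the strand of the gene, with capitals marking GATAA or AGGTCA on either strand. The intervals are chrIV:7311101-7311221 (minus strand) for grl-4, chrIV:3439578-3439654 (plus strand) for grd-3, chrIV:10615064-10615184 (plus strand) for ptr-14, chrV:5533856-5533970 (minus strand) for grl-1, chrV:8618574-8618694 (plus strand) for grd-5 and chrX:8501160-8501221 (plus strand) for grd-4.
grl-4: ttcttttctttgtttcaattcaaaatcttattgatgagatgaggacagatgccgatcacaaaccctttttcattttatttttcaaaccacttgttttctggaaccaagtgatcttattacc
grd-3: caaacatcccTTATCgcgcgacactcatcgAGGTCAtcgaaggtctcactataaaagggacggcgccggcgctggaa
ptr-14: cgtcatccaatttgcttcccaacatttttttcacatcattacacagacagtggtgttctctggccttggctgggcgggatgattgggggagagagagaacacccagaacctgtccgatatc
grl-1: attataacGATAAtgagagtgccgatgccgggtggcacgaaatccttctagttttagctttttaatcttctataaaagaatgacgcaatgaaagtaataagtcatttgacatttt
grd-5: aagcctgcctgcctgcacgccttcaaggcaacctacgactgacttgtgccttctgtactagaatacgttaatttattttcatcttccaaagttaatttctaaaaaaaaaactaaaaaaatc
grd-4: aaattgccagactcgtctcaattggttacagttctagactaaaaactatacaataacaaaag
Relative to the 5' end, with negative values upstream, the summits lay at -401 bp in grl-4, -17 bp in grd-3, -303 bp in ptr-14, -55 bp in grl-1, -398 bp in grd-5 and -2 bp in grd-4. Both motifs stood within the 77 bases shown for grd-3, GATAA alone stood in those for grl-1, and the other 4 stretches held neither.

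A further 2 upstream stretches belong to the genes that carried the 2 highest signals of replicate 2 with no region listed in replicate 1, and they were chosen after these values were seen. They are the 250 bases before the annotated 5' end of ptr-4 (chrX:6065987-6066236, minus strand) and ptr-18 (chrII:12965296-12965545, plus strand), with the same meaning of capitals.
ptr-4: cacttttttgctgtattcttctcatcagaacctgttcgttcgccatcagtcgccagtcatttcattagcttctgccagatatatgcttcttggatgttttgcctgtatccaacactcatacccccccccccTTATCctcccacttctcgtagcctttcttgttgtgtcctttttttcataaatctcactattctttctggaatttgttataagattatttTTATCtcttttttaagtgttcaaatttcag
ptr-18: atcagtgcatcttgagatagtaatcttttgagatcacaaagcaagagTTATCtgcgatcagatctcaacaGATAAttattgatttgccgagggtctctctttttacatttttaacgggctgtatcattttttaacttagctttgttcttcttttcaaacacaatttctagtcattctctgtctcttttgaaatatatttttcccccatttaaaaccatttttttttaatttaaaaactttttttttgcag
GATAA occurred 2 times in each stretch, and AGGTCA in neither. Both stretches ended in the letters AG. Many nematode transcripts receive a spliced leader at an acceptor site that ends in these letters, so an annotated 5' end of this kind need not be where transcription begins. AG stood directly before the 5' end in 23 of the 88 members (26.1%) and in 27.6% of all 19973 genes. By replicate, it stood there in 16 of the 36 members with a region listed in replicate 2 only, 4 of the 21 with a region in both, 3 of the 29 with a region in neither, and 0 of the 2 with a region in replicate 1 only. This split by replicate was not counted over all genes, so it is not shown to be particular to the members. The count of AG was added after the sequences were seen.

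Each replicate's list, and a list made from both replicates pooled, held 30000 regions with a signal value assigned by the authors' peak caller. The file names describe these lists as peaks together with background, meant as input to a reproducibility analysis, so a listed region is not by itself a confident peak. Signal ran from 5.09 to 803 with a median of 9.56 in the pooled list, from 3.11 to 495 with a median of 6.42 in replicate 1, and from 2.22 to 333 with a median of 4.53 in replicate 2. Since the scales differed, the replicates were set side by side by percentile within each list. A separate consensus list held 1328 peaks with signals from 34.3 to 803. For sequencing depth (not given in the sources used here) no value was at hand, so no counting error was attached to a signal, and a gene with no region is one for which none was listed, not one shown to lack polymerase. The vitellogenin genes vit-1 to vit-6, yolk genes of the adult hermaphrodite intestine, had no region in any list. This cannot check the stage, since 47.4% of all genes had a region in neither replicate. Epidermal (elt-3, lin-26), muscle and neuronal markers were listed in both replicates for 9 of 10 genes, against 34.7% of all genes, with myo-3 listed in replicate 2 only. Of 4 intestinal markers, cpl-1 was listed in both, elt-2 and ges-1 in replicate 2 only and elt-7 in replicate 1 only.

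Many more members had a listed region in replicate 2 than in replicate 1. A region was assigned to a gene when its summit lay between 500 bp upstream of the 5' end and the 3' end. Of the 88 members, 23 (26.1%) had a region in replicate 1 and 57 (64.8%) in replicate 2, where all genes gave 42.6% and 44.8%. A region stood in both replicates for 21 members, against 34.7% of all genes, in replicate 1 only for 2 members, against 7.86%, and in replicate 2 only for 36 members (40.9%), against 10.1%. The remaining 29 members had a region in neither replicate, against 47.4% of all genes. The share of members was thus below that of all genes in replicate 1 and above it in replicate 2. In the pooled list 39 members had a region, close to the 42.8% of all genes.

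**Figure D1:**
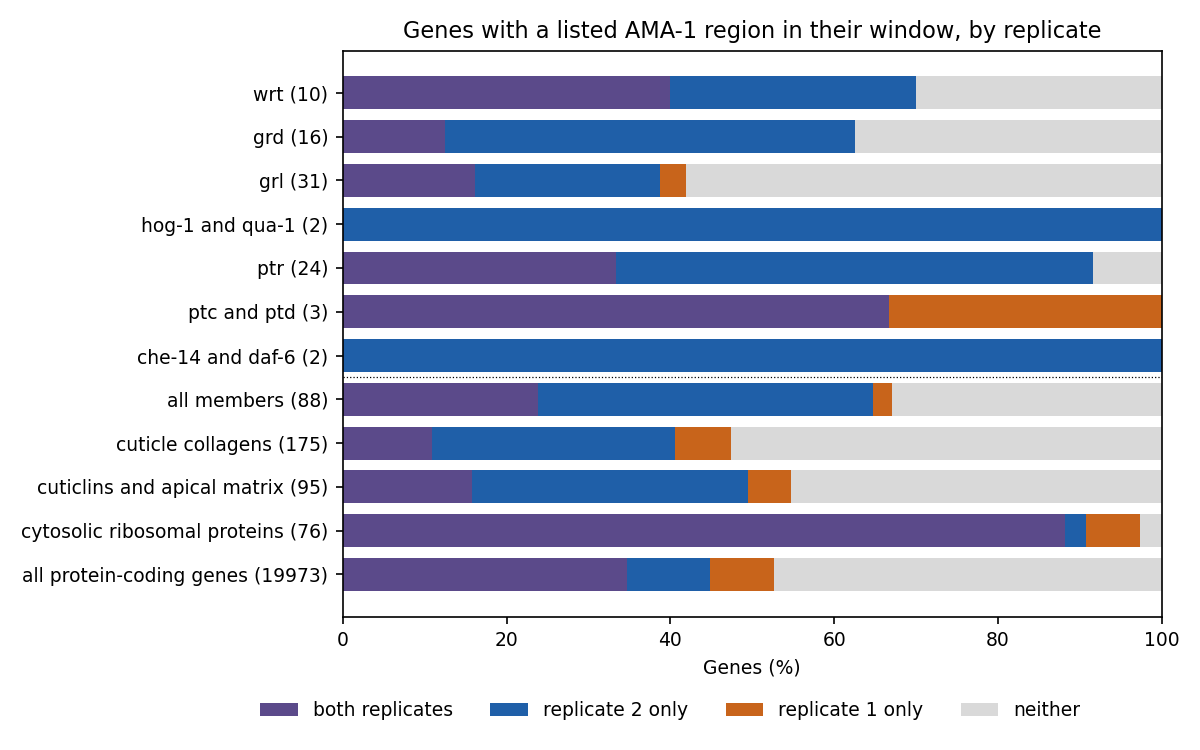
Horizontal bars give the percent of genes (x axis) with a listed region in both replicates, in replicate 2 only, in replicate 1 only or in neither, for each subfamily, for all 88 members and for 4 wider sets, with the number of genes in brackets. The blue replicate 2 only segment covers 40.9% of all members and 10.1% of all protein-coding genes. It is also wide in the collagen bar (29.7%) and in the bar of cuticlins and apical matrix (33.7%), which includes astacin protease genes. The ribosomal protein bar is almost filled by the segment for both replicates (88.2%).

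The same difference stood in the number of regions. The member windows held 77 distinct regions of replicate 1 and 187 of replicate 2, which were 0.324% and 0.815% of the regions in all gene windows of each list. In the pooled list they held 125 regions (0.533%). The ptr genes held 36 regions in replicate 1 and 90 in replicate 2, the grd genes 2 and 18, the grl genes 11 and 30, and the wrt genes 6 and 19. The hog-1 and qua-1 windows together held 0 and 10, and those of che-14 and daf-6 held 0 and 4. The ptc and ptd genes were the exception among the subfamilies, with 22 regions in replicate 1 and 16 in replicate 2.

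**Figure D2:**
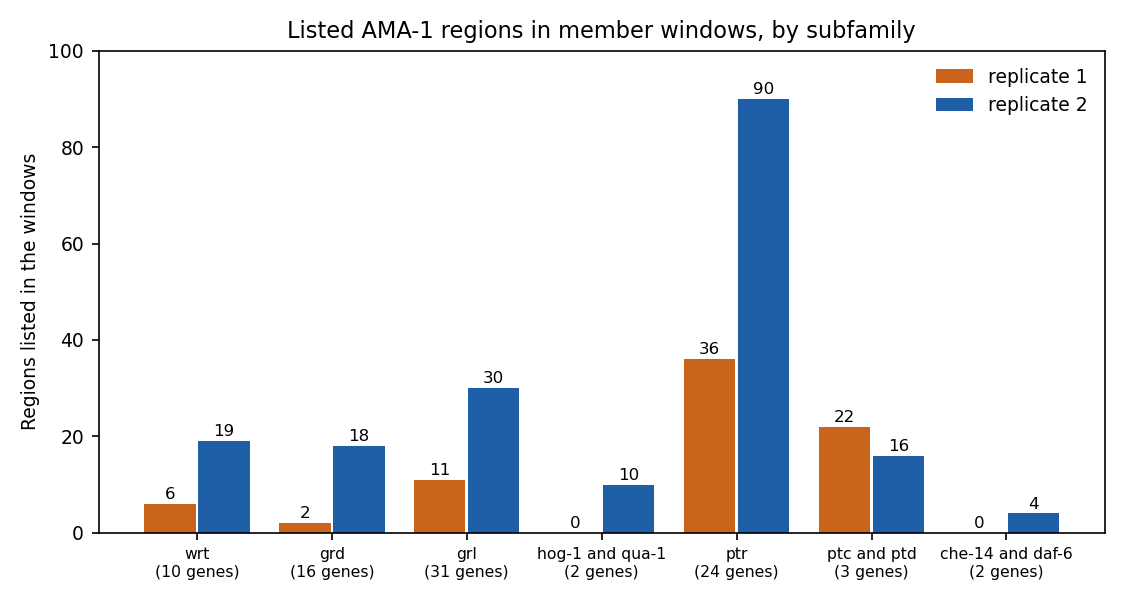
Bars give the number of listed regions (y axis) whose summit lay in the windows of each subfamily's genes, in replicate 1 (orange) and replicate 2 (blue). Replicate 2 is higher in 6 of the 7 subfamilies, and the ptc and ptd genes, with 22 and 16 regions, are the exception.

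The share of members with a high-signal region lay below that of all genes in the pooled list and in replicate 1, and above it in replicate 2. A region was called high-signal when it was among the 5000 of highest signal in its list, which meant a signal of at least 18.2 in the pooled list, 12.8 in replicate 1 and 8.85 in replicate 2. High-signal regions stood at 10 members (11.4%) in the pooled list, against 14.5% of all genes, at 8 members (9.09%) in replicate 1, against 14.5%, and at 18 members (20.5%) in replicate 2, against 12.9%. A consensus peak stood at 1 member, against 4.68% of all genes. That member was grl-4 (WBGene00001713), a ground-like gene, whose peak at chrIV:7310991-7311330 on ce11 lay upstream of the gene and had a pooled signal of 36.7. Its signal was 20.4 in replicate 1 and 15.6 in replicate 2, at percentiles 93.7 and 95.4 of the lists, so both replicates placed it near the top. The window holding this peak was shared with a non-coding gene, and the signal cannot be divided between them.

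Among the warthog genes, 4 of 10 were listed in both replicates, 3 in replicate 2 only and 3 (wrt-4, wrt-7 and wrt-8) in neither. The highest in the pooled list was wrt-1 (WBGene00006947), at 30.2, with 18.1 in replicate 1 and 12.3 in replicate 2. The replicates placed it alike, at percentile 91.8 in both, and its summit lay in the 5' UTR, 103 bp into the gene in the pooled list. wrt-2 had the highest replicate 1 signal of all members, 26.2 (percentile 96.4), and 8.52 in replicate 2 (percentile 82.1). Its 1 region of replicate 1 lay in a coding exon, whereas the highest of its 4 regions of replicate 2 lay in the 3' UTR. wrt-3 stood at 12 in replicate 1 and 8.52 in replicate 2, near the same rank in both (percentiles 81.2 and 82.1). wrt-5, which acts in the development of the epidermis, stood at 8.43 and 4.49 (percentiles 66.2 and 49.4). The 3 warthog genes listed in replicate 2 only were wrt-9 at 9.97, wrt-10 at 6.32 and wrt-6 at 4.02.

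The groundhog genes had 2 regions in all in replicate 1, with 2 of 16 genes listed in both replicates and 8 in replicate 2 only. The 2 listed in both were grd-8 and grd-3. grd-8 had a signal of 16.6 in replicate 1 and 3.59 in replicate 2, percentiles 90.1 and 34.3, the widest gap between the replicates of any member listed in both. The replicates also differed in its position, since the replicate 1 summit lay 1635 bp into the gene, in a coding exon, and the replicate 2 summit at -19 bp, upstream of the 5' end. grd-3 stood at 8.56 and 6.41, at similar percentiles of 67.0 and 69.9, with both summits just upstream of the gene. Of the 8 listed in replicate 2 only, grd-14 (11.5) and its neighbour grd-4 (9.71) were high-signal. The others were grd-5 (7.19), grd-12 (5.79), grd-13 (4.78), grd-1 (3.71), grd-6 (3.51) and grd-2 (2.56), the last close to the lowest signal of the list. grd-7, grd-9, grd-10, grd-11, grd-15 and grd-16 had no region in either replicate.

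The ground-like genes were the largest Hedgehog-related subfamily, with 18 of 31 genes (58.1%) listed in neither replicate. That share was near the 60.2% of all genes not longer than the median gene, and the grl genes had a median length of 1301 bp. After grl-4, grl-10 had the second highest pooled signal of all members, 31.7, with 17.9 in replicate 1 and 10.7 in replicate 2 (percentiles 91.5 and 88.6). Its summits lay in the later part of the gene, 907 and 922 bp into a gene of 1215 bp. grl-1 stood at 12.5 and 6.03, and its highest region lay at -55 bp in replicate 1 and 2545 bp into the gene in replicate 2. grl-21 stood at 9.21 and 5.91, with percentiles of 70.4 and 65.8. GRL-21 has been linked to lipid storage and mitochondrial dynamics together with the patched-related protein PTR-24. grl-14 showed the opposite order, 5.64 in replicate 1 and 8.30 in replicate 2, percentiles 41.5 and 81.2. In replicate 2 only, high-signal regions stood at grl-7 (15.7), grl-16 (14.3) and grl-15 (12.2), all above percentile 90, and lower ones at grl-5 (8.06), grl-24 (4.66), grl-9 (3.31) and grl-22 (2.94). grl-26 was listed in replicate 1 only, at 7.47, and was the only Hedgehog-related gene so listed.

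qua-1, the quahog gene, which is needed for moulting, and hog-1 were both listed in replicate 2 only. qua-1 (WBGene00004264) had 7 regions in replicate 2, the highest 1191 bp into the gene at 16.3 (percentile 95.9), and a pooled signal of 15.9. hog-1 had 3 regions in replicate 2, the highest at 5.87, and none in the pooled list.

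A larger share of the patched-related than of the Hedgehog-related genes was listed. A region stood in at least 1 replicate for 27 of 29 patched-related genes and for 32 of 59 Hedgehog-related genes. The share listed in neither replicate was 6.90% of the patched-related and 45.8% of the Hedgehog-related genes, against 47.4% of all genes and 34.5% of genes longer than the median gene, so the Hedgehog-related share was near that of all genes. The patched-related genes were also longer, with a median of 6014 bp against 1784 bp, which gives each a wider window. Of the 24 ptr genes, 8 were listed in both replicates, 14 in replicate 2 only and 2 (ptr-9 and ptr-15) in neither.

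The highest replicate 2 signals of all members stood at a pair of ptr genes with no region in replicate 1. ptr-4 (WBGene00004219), which is needed for the apical precuticle matrix and for moulting, had 6 regions in replicate 2, the highest at 21.2 (rank 602 of 30000, percentile 98.0) in an intron 1336 bp into the gene. ptr-18 (WBGene00004232), which keeps progenitor cells quiescent in arrested L1 larvae in a process that involves GRL-7, had 10 regions, the highest at 20.8 (rank 637, percentile 97.9) and 161 bp into the gene. Both were also in the pooled list, at 19.8 and 17.5. ptr-14 had 7 regions in replicate 2, up to 13.5 (percentile 93.2), and a pooled signal of 17.6. Of the other ptr genes listed in replicate 2 only, ptr-16 (9.43, 10 regions) and ptr-2 (9.05, 4 regions) were high-signal. The remaining 9 ptr genes of this kind (ptr-3, 6, 10, 17, 19, 20, 21, 22 and 25) had signals from 2.75 at ptr-21 to 5.91 at ptr-19.

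Among the 8 ptr genes listed in both replicates, ptr-13 and ptr-24 had the higher replicate 1 signals. ptr-13 stood at 15.4 in replicate 1 and 8.48 in replicate 2, with 11 and 7 regions. ptr-24 stood at 14.5 and 4.37 (percentiles 87.1 and 47.6), with 9 and 4 regions, so replicate 1 was higher in both signal rank and region number. ptr-1, ptr-8 and ptr-12 ranked somewhat higher in replicate 2. Their signals were 10.5 and 8.51 for ptr-1, 10.6 and 8.67 for ptr-8, and 11.5 and 9.64 for ptr-12. ptr-1 differed more in number, with 1 region in replicate 1 and 8 in replicate 2. ptr-11 stood at 5.15 and 6.18 (percentiles 35.2 and 68.1), ptr-5 at 3.14 and 3.55 (0.575 and 33.3), and ptr-23 at 8.50 and 5.59 (66.6 and 62.8). ptr-5 was thus within the weakest regions of replicate 1. In ptr-5, ptr-8, ptr-12, ptr-13, ptr-23 and ptr-24 the highest regions of the replicates did not overlap, so their ranks compare different sites. In ptr-12, for example, they lay 3478 bp into the gene in replicate 1 and 7721 bp in replicate 2.

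The patched genes proper were covered in replicate 1. ptc-1 (WBGene00004208), which acts in cytokinesis of the germ line, had 10 regions in each replicate, with a highest signal of 18.3 in replicate 1 and 9.0 in replicate 2 (percentiles 92.0 and 83.8) and a pooled signal of 26.1. Of its window, 79.5% was sequence found once in the genome. ptc-3, an essential gene that acts in osmoregulation, had 9 regions in replicate 1 and 6 in replicate 2, with highest signals of 10.5 and 9.14 (percentiles 76.2 and 84.4). The highest region lay 5071 bp into the gene in replicate 1 and 397 bp in replicate 2. ptd-2 was listed in replicate 1 only, with 3 regions up to 4.51. che-14, a relative of Dispatched that acts in apical secretion, and daf-6, which shapes the lumen of the sensory glial channel, were listed in replicate 2 only. The che-14 signal was 6.50, from 3 regions, and the daf-6 signal was 2.68, from 1 region near the lower end of the list.

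**Figure D3:**
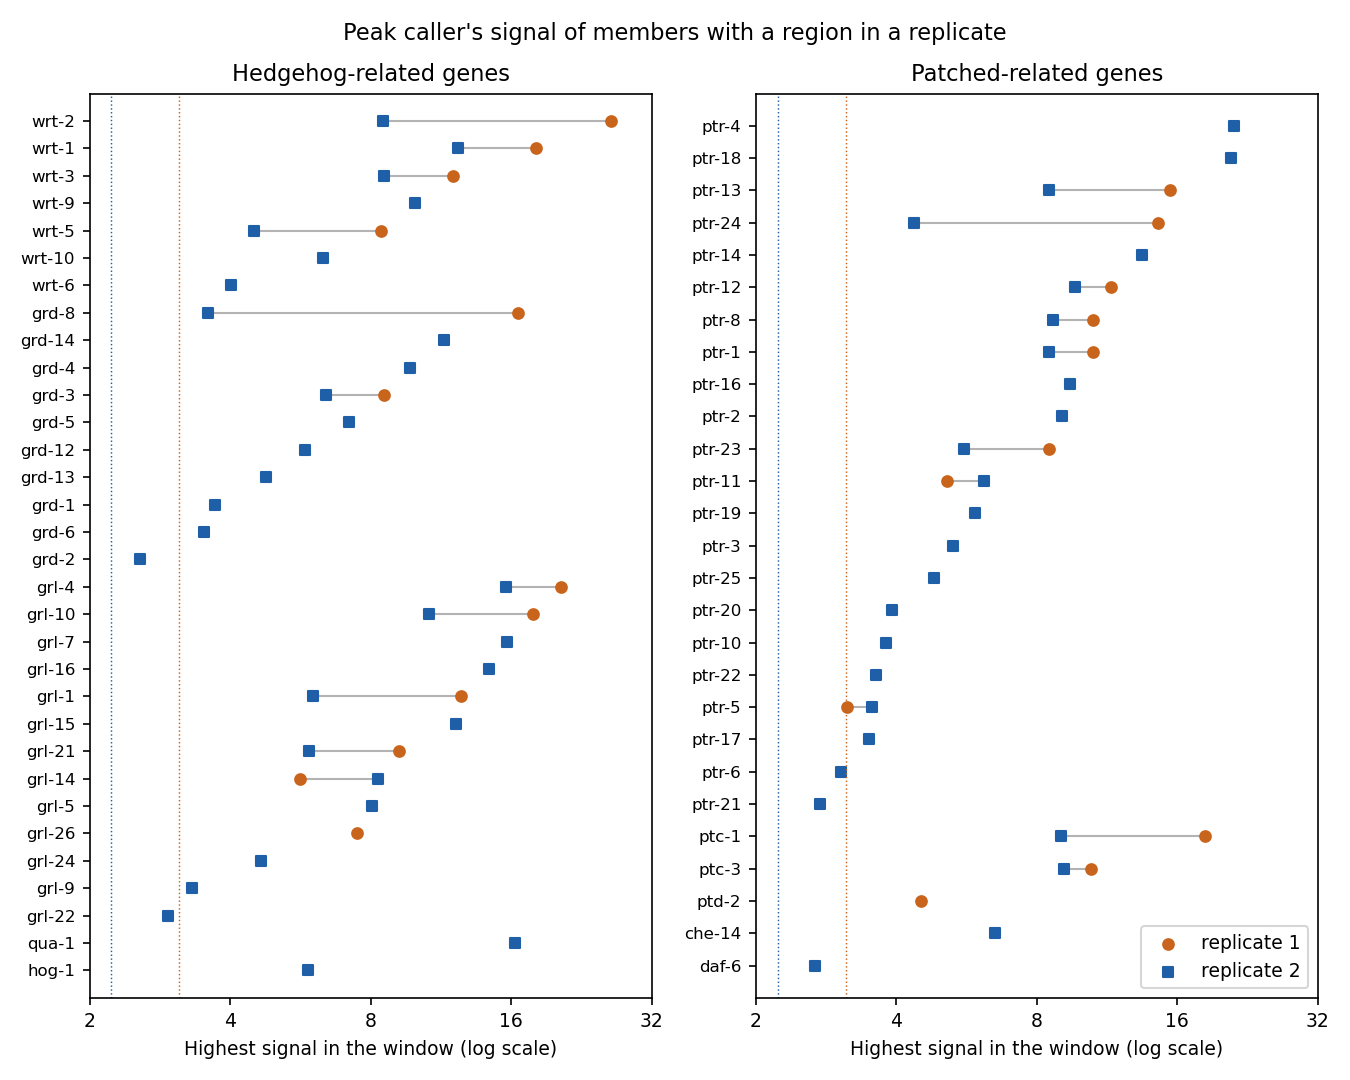
Points give the highest signal in the window of each member with a region (x axis, log scale), in replicate 1 (orange circles) and replicate 2 (blue squares), joined by a grey line where both exist, with Hedgehog-related genes on the left and patched-related genes on the right. Dotted lines mark the lowest listed signal of each list, 3.11 and 2.22. Many genes show a blue square with no circle, up to 21.2 for ptr-4, while grl-26 and ptd-2 are the 2 genes with a circle alone.

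Absence from replicate 1 was not limited to weak regions of replicate 2. The 36 members listed in replicate 2 only had replicate 2 signals from 2.56 to 21.2 with a median of 5.83, and 23 of them lay above the median signal of the whole list. Of these 36 genes, 22 had at least 2 regions, 17 had a pooled region, and 12 were high-signal in replicate 2. A high-signal region in replicate 2 with none in replicate 1 thus stood at 12 members (13.6%), against 1.00% of all genes. The converse, high-signal in replicate 1 with none in replicate 2, stood at 0 members, against 0.776% of all genes. Which feature of the samples this goes with was not tested, since the labels give both replicates the same stage and no age.

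**Figure D4:**
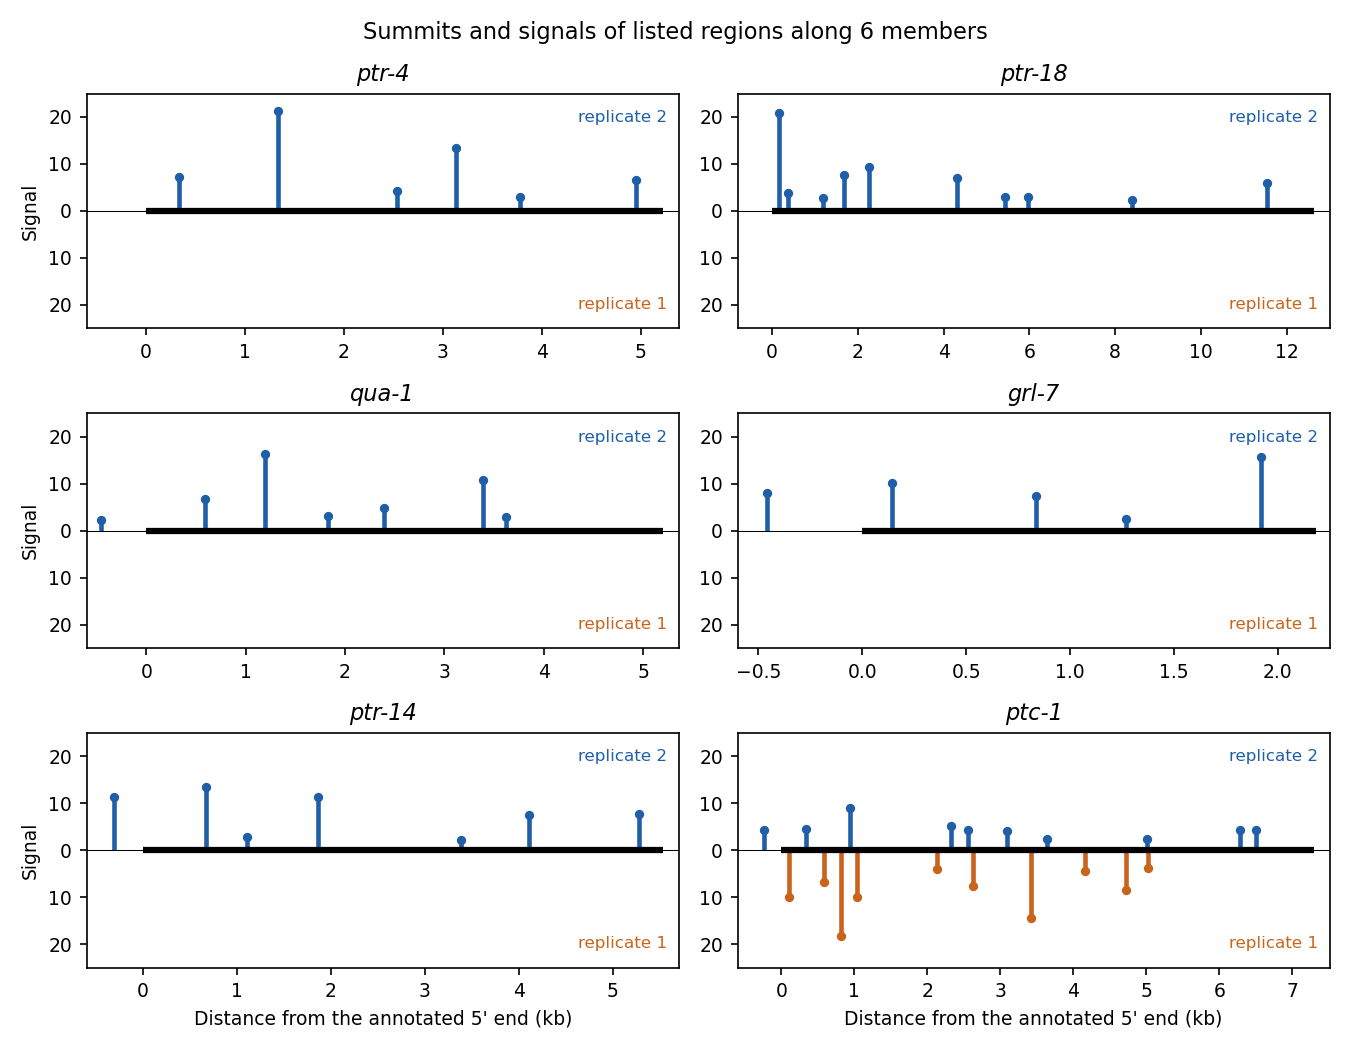
Stems mark the summits of listed regions along 6 members (x axis, distance from the annotated 5' end in kb; black bar, the gene), with signal in replicate 2 drawn upward in blue and in replicate 1 downward in orange. Regions of replicate 2 are spread along ptr-4, ptr-18, qua-1, grl-7 and ptr-14 with none in replicate 1, whereas ptc-1 has 10 regions in each replicate.

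Members listed in both replicates were split almost evenly by rank. Of the 21 such members, 10 ranked higher in replicate 2 and 11 lower, where 44.6% of the 6936 genes listed in both ranked higher in replicate 2. The median difference in percentile, replicate 2 minus replicate 1, was -0.01 over these members and -1.42 over all such genes, and its sign over the members depended on the processing, with values from -3.87 to 1.97 in the alternatives. Across the 21 members, the correlation of log2 signal between replicates was 0.50 (Pearson) and 0.54 (Spearman), and across all 6936 genes it was 0.62 and 0.56. These are descriptions across genes, which are not independent replicates. Because a gene can enter this set through any region in its window, the 2 highest regions were not always the same site.

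The share of members whose highest region lay near the 5' end was below that of all genes in each list. It lay within 500 bp of the 5' end, on either side, for 17 of 57 members in replicate 2 (29.8%), against 52.3% of all genes with a region. In replicate 1 this held for 10 of 23 members (43.5%), against 56.1%, and in the pooled list for 11 of 39 (28.2%), against 57.1%. In replicate 2 the highest region lay in an intron for 31 members, in a coding exon for 12, upstream for 8, in the 3' UTR for 4 and in the 5' UTR for 2. In replicate 1 it lay in an intron for 8, in a coding exon for 7, upstream for 7 and in the 5' UTR for 1. These places were not counted over all genes, so they are not shown to be particular to the members. Members were also longer than all genes, with a median of 2850 bp against 2027 bp. Whether length goes with the position of the highest region was not tested. The pooled region was shared with the window of another coding gene for 1 member, grl-21, and with that of a non-coding gene for 3. In replicate 2 the highest region was shared with another coding gene's window at wrt-2, wrt-10 and grl-24. The grl-26 region of replicate 1 was shared with non-coding genes, and 80.6% of it was sequence found once in the genome. Shared signals cannot be divided between the genes.

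The counts were also set beside gene length, chromosome and repeated sequence. Members had a median length of 2850 bp, against 2027 bp for all genes, and those listed in replicate 2 only had a median of 4266 bp. Among the 52 members longer than the median gene, 26 (50%) were listed in replicate 2 only, against 12% of all such genes. Among the 36 that were not longer, 10 (27.8%) were so listed, against 8.13%. The share of members was thus above that of all genes in both length classes. The classes did not match the lengths. In the longer class members had a median of 5015.5 bp, against 3636 bp for all genes, and in the other class 1192 bp, against 1215 bp. Whether length goes with the difference was not tested. The X chromosome held 14 members, of which 8 were listed in replicate 2 only, 3 in both and 3 in neither. Replicate 2 only genes made up 16.8% of all X-linked genes, and the chromosome held 13% of the regions of replicate 1 and 16.4% of those of replicate 2. On the autosomes 28 of 74 members (37.8%) were listed in replicate 2 only, against 9.0% of all autosomal genes. Chromosome V held 33 members, 18 of them (54.5%) listed in neither replicate, near the 59.2% of all its genes. In 7 members less than 90% of the window was sequence found once in the genome, with the lowest share, 75.6%, at grl-27. Among them were ptr-17 (84.1%) and ptr-18 (87.0%), both listed in replicate 2 only. A further 4 (grl-20, grl-27, grl-28 and grl-29) were listed in neither replicate. Without these 7 members the replicate 2 only count was 34 of 81 (42.0%), against 10.7% of all genes with at least 90% such sequence.

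The 29 members with no region in either replicate comprised 27 Hedgehog-related genes and ptr-9 and ptr-15. Their median length was 1784 bp, the same as over all 59 Hedgehog-related members, and 11 of the 29 were longer than the median gene. Neighbouring genes within 5000 bp of each other were among them, namely grl-28 to grl-31, and wrt-7 with wrt-8. The other grl genes were grl-2, 3, 6, 8, 11, 12, 13, 17, 18, 19, 20, 23, 25 and 27. Neighbours did not always share a class, since wrt-1 was listed in both replicates and wrt-10 in replicate 2 only.

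The upstream letters were searched for motifs of factors that act in the epidermis. GATAA, the core letters bound by GATA factors such as ELT-3, was found on either strand in the 250 bases before to 50 after the 5' end in 46 of 88 members (52.3%) and 57.6% of all genes. AGGTCA, a half-site of nuclear receptors such as the moulting regulator NHR-23, was found in 12 members (13.6%) and 8.27% of all genes. The motifs can share their end letters, and occurrences overlapped in 7 of the 19973 stretches and in 0 of the members' 88. Among members listed in replicate 2 only, 16 of 36 (44.4%) held GATAA and 4 (11.1%) AGGTCA. In those listed in both replicates the counts were 12 of 21 (57.1%) and 4 (19.0%), and in those listed in neither 17 of 29 (58.6%) and 3 (10.3%).

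Other genes related to Hedgehog signalling in animals, picked by name, were mostly listed in both replicates, where 34.7% of all genes were. Of 9 such genes, 7 had a region in replicate 1, against 42.6% of all genes, and 9 in replicate 2, against 44.8%. A consensus peak stood at 0 of them, against 4.68% of all genes. kin-1, the catalytic subunit of protein kinase A, stood highest, at 22.4 in replicate 1 and 14.9 in replicate 2. tra-1, the Gli-family factor, stood at 5.74 and 4.15. hhat-2, a relative of the Hedgehog acyltransferase, stood at 15.6 and 6.96, and hhat-1 was listed in replicate 2 only, at 6.74. The sterol-sensing proteins of the NPC1 type, ncr-1 and ncr-2, stood at 5.89 and 6.18 for ncr-1 and in replicate 2 only, at 5.08, for ncr-2. scp-1, which has a sterol-sensing domain, stood at 11.5 and 7.47, lrp-1, a megalin relative required for moulting, at 15.7 and 9.59, and gsk-3, a kinase that acts on Gli factors in other animals, at 11.3 and 7.55.

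The side-by-side counts of the collagen list and of the cuticlin and apical matrix list had the same order as those of the members. Of 175 cuticle collagen genes, 31 were listed in replicate 1 and 71 in replicate 2, with 52 (29.7%) in replicate 2 only and 12 in replicate 1 only. The list of 95 cuticlin and apical matrix genes also held the astacin protease genes (nas) and the mlt and lpr genes, which were not counted apart. Of these 95, 20 were listed in replicate 1 and 47 in replicate 2, with 32 (33.7%) in replicate 2 only and 5 in replicate 1 only. The 76 cytosolic ribosomal protein genes differed from these lists, with 72 listed in replicate 1 and 69 in replicate 2, and 2 in replicate 2 only. High-signal regions stood at 11 collagen genes in replicate 1 and 33 in replicate 2, and at 58 and 48 ribosomal protein genes. The differences between these lists were not tested.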

How the data were processed

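AMA-1 chromatin immunoprecipitation and sequencing was analysed in 2 biological replicates of N2 L1 larvae, which form 1 group. The deposited lists of the authors give each region's signal, as assigned by their peak caller, and a −log10 q-value, on build ce11. The signal was used to rank regions within a list, and the deposited −log10 q-value only in an alternative, because many regions share its upper limit. Caller, aligner, control preparation, thresholds and depth were not given in the sources used here. Lists on build ce10 were not used.

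Gene windows came from the Ensembl release 115 annotation, without 12 mitochondrial genes, and each gene took the region of highest signal in its window. The unique share is the percent of 31-base words in the window found once in the genome. Scripts ran in Python 3.11.15 with numpy 2.4.6, pandas 2.3.3, scipy 1.17.1 and matplotlib 3.10.9. They recovered 50 of 50 regions planted in windows of members in simulated lists. Because the planted summits were drawn from the same windows, this checks only the look-up code and not the choice of window. No test was made, since 1 group allows none, and counts stand beside the same count over all genes. Whether the replicates share cultures is not stated beyond the labels.

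The members and lists were chosen with earlier results of these data known. Named genes were those with a consensus peak, the 12 of highest pooled signal, the 8 of widest percentile difference in each direction, up to 8 high-signal in 1 replicate and unlisted in the other, the highest of each subfamily, and ptc-1, ptc-3, che-14, daf-6, qua-1 and hog-1. Other members were named beside small counts after their values were seen. The lists were other pathway genes, cuticle collagens, cuticlins and apical matrix genes, ribosomal proteins and markers of epidermis, muscle, intestine, neurons and adult intestine. The list of cuticlins and apical matrix genes included the nas astacin protease genes. Alternatives covered the window, the assignment of summits, the signal limits, sequence uniqueness, chromosomes and single replicates.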

Additional observations from a re-analysis of the deposited data

How the results depend on the processing

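The count of members listed in replicate 2 only (36) was 24 to 37 in the alternatives run, and it was 24 (27.3% against 8.84% of all genes) with summits within 500 bp of the 5' end only and 25 (28.4% against 8.08%) with regions above the median signal of the list. Of the recomputed counts and the median percentile difference, 22 values moved by over 1.5 times or by more than the spread between replicates, and 86 did not. The median percentile difference (-0.01) stayed within that spread of 4.58 points but changed sign, to 1.97 with a window of 250 bp upstream, 1.68 with overlap of the region with the window, and 0.48 with members of at least 90% unique sequence or with autosomes only, the last chosen after seeing the data. The members ranked higher in replicate 2 then numbered 11, 13, 10 and 9. With summits within 500 bp of the 5' end only, 23 members had a pooled region and 9 a region in both replicates. A region in replicate 1 then stood at 13 members (14.8%), against 32.3% of all genes. In replicate 2 the count was 33 (37.5%), against 31.8%, which is nearer to all genes than 64.8% against 44.8% in the main window. Listed in replicate 1 only were 4 members (4.55%), against 9.34%. High-signal regions then stood at 4 members in the pooled list, 3 in replicate 1 and 9 in replicate 2, and 4 members ranked higher in replicate 2. Taking the 2500 regions of highest signal gave 4, 4 and 8 high-signal members in the pooled list, replicate 1 and replicate 2, and taking 10000 gave 22, 16 and 31. The high-signal counts of these settings were not made over all genes. The consensus count was 0 with a window of 250 bp upstream, because the grl-4 summit lay farther out, and 0 with consensus peaks above their median signal. Regions above the median of the list gave 4 members in replicate 1 only. Leaving out each replicate gave 23 to 57 members with a region in place of the pooled 39, 8 to 18 high-signal members, and 1 to 3 members among the 1328 highest regions. Counting a missing region as lowest, an alternative chosen after seeing the data, gave 46 of 88 members ranked higher in replicate 2. This value is fixed by the 10 members ranked higher and the 36 listed in replicate 2 only, so it adds no further result. It was not counted over all genes. No paired analysis was possible because the series has 1 group. Unknown depth limits every statement on a gene without a region, and the causes of these movements were not tested beyond the settings' own construction.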
